A study of Mus musculus with 6 samples.

Results

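The transcripts of 9 genes that make, break down, bind or sense retinoic acid were examined in primary oviductal smooth muscle cells of the mouse. The genes were picked by name as rows of the deposited table, which held 54232 genes: Aldh1a1, Aldh1a2, Aldh1a3, Dhrs3, Cyp26b1, Crabp1, Crabp2, Rara and Rarb. All 9 were found, each as 1 row. Cells came from females aged 8 to 12 weeks on day 2 of pregnancy after mating with a stud male, with 3 libraries from WT and 3 from Pbrm1 cKO mice. PBRM1 is part of the PBAF form of the SWI/SNF complexes, which move nucleosomes. In the study the conditional knockout carries floxed Pbrm1 alleles and a cre inserted at the progesterone receptor gene (PR-IRES-cre), so only cells with a history of progesterone receptor expression lose Pbrm1. The labels call the controls WT, a legend of the study names floxed mice instead, and it is not stated how many animals went into a library. Both groups were dissociated with trypsin, collagenase and dispase and plated for 4 h in 12% charcoal-stripped serum and then for 2 h in 10% serum. Charcoal treatment removes small lipophilic molecules, retinoids among them.

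Cells make retinoic acid from retinol in a pair of oxidations. Retinol dehydrogenases such as Rdh10 turn retinol into retinal, a step that Dhrs3 reverses, and the retinaldehyde dehydrogenases Aldh1a1, Aldh1a2 and Aldh1a3 then convert retinal irreversibly into retinoic acid. The acid is carried in the cytosol by Crabp1 and Crabp2, is cleared by cytochromes of the Cyp26 family, and acts in the nucleus through the receptors Rara, Rarb and Rarg, each paired with a retinoid X receptor. In the female reproductive tract the pathway is known for its part in shaping the Müllerian duct and in epithelial and stromal differentiation.

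Libraries held between 15390818 and 18947947 counts, and 3 counts, taken as the detection floor, corresponded to 0.159 to 0.193 CPM, the counts scaled to equal library totals with the edgeR normalization factors. The targeted gene Pbrm1 fell from 175 to 45.6 CPM on average, or to 26.0% of WT. The first principal component, with 73.5% of the variance, separated the groups, and on the second component cKO replicate 2 lay at 22.1 while the other 5 libraries lay between -15.4 and 2.83. The cells were not of 1 type. Smooth muscle markers such as Acta2 and Myh11 were present in every library and summed to between 3498 and 3570 CPM over 10 genes in WT and to between 4272 and 4769 CPM in cKO. Markers of other cells were present too, and the sums of 4 of these 5 lists did not overlap between the groups. Fibroblast markers summed to 1306 to 1314 CPM in WT and 2223 to 2377 CPM in cKO, leukocyte markers to 705 to 754 and 1030 to 1114 CPM, and endothelial markers to 399 to 419 and 340 to 353 CPM. Epithelial markers summed to 949 to 1038 and 1088 to 1214 CPM. The sums of mesothelial markers overlapped (452 to 456 and 429 to 467 CPM), although 6 of these genes were lower in cKO and 1, Krt19, was higher. Krt19 was the most abundant of that list and averaged 125 CPM in WT and 216 CPM in cKO. The overlap of these sums therefore did not reflect most genes of the list. By gene, 5 of 10 smooth muscle markers were higher in cKO and 1 was lower. The counts were 7 and 1 of 9 fibroblast markers tested, 8 and 0 of 8 leukocyte markers tested, and 3 and 1 of 10 endothelial markers. Of all genes tested, 21.9% were higher and 21.8% lower (edgeR adjusted p under 0.05). The 1 lower endothelial marker was Kdr, the most abundant of that list, which averaged 182 CPM in WT and 99.4 CPM in cKO. The lower endothelial sum in cKO therefore did not reflect most genes of the list. In such bulk libraries, fewer cells of a type and less RNA per cell cannot be told apart, and the part of these markers in the differences that follow was not tested.

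Of the 9 genes, 7 differed between the groups in edgeR's quasi-likelihood test (adjusted p under 0.05 over the 15376 genes tested), where 43.7% of all genes tested did so. Aldh1a3, Dhrs3, Cyp26b1 and Rara were higher in cKO (4 genes, against a background of 21.9%), and Aldh1a2, Crabp1 and Crabp2 were lower (3 genes, against 21.8%). Among the 7, all but Rara also had an absolute log2 fold change over 1, which makes 6 of 9 genes where 6.49% of all genes tested passed both limits. The CPM of the groups did not overlap for the same 7 genes, which was the case for 53.5% of all genes tested. The median absolute log2 fold change was 1.09 over the 9 genes and 0.22 over all genes tested, and the signed median was 0.06 because the changes ran in both directions. Crabp1 and Crabp2 passed the filter on low counts through WT, since only 2 and 1 of their cKO libraries reached its limit of 0.574 CPM, so these counts are given as a description.

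**Figure D1:**
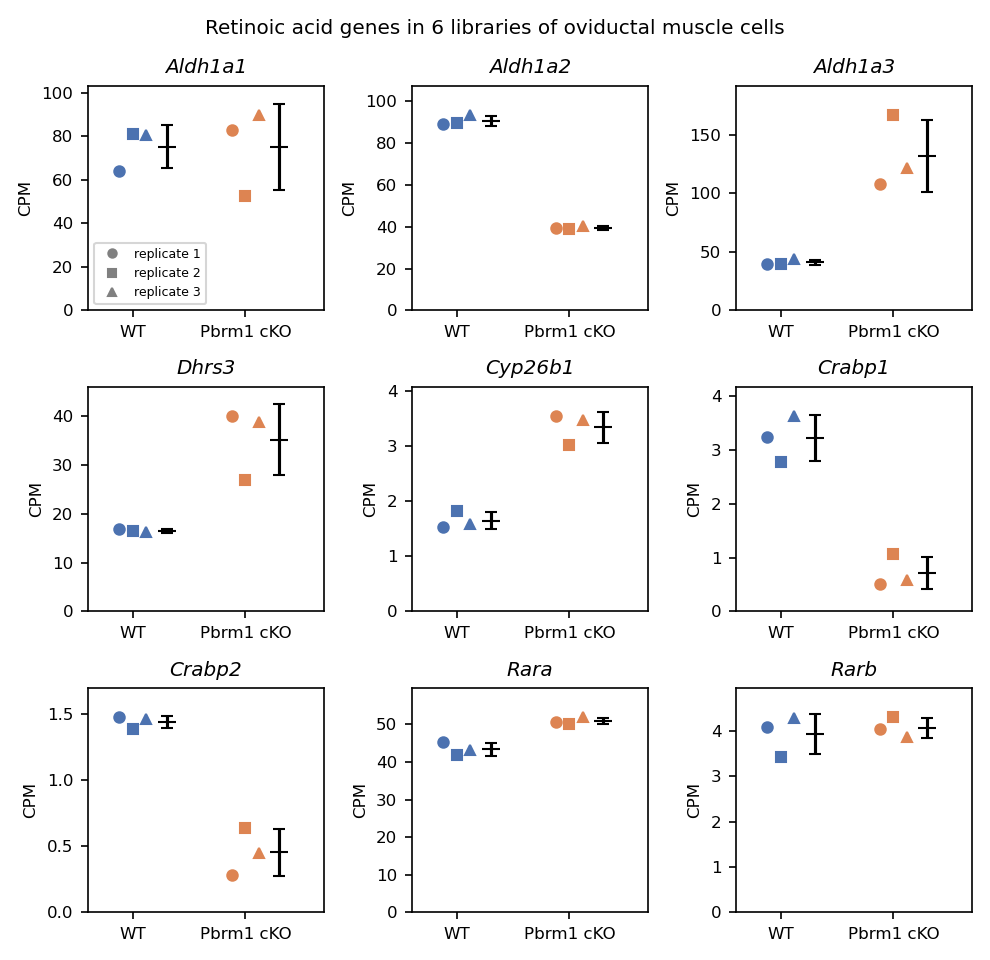
Normalized CPM (vertical axes, each from 0) of the 9 retinoic acid genes in the 3 WT (blue) and 3 Pbrm1 cKO (orange) libraries. Symbols mark the replicate number and the black bars give the mean ± SD. WT and cKO values overlap only for Aldh1a1 and Rarb.

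Among the retinaldehyde dehydrogenases, Aldh1a2 and Aldh1a3 moved in opposite directions. Aldh1a2, the enzyme that supplies most retinoic acid to the mesoderm of the embryo and is also expressed in mesothelium, fell in cKO cells, Aldh1a3 rose, and no difference was detected for Aldh1a1.

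Aldh1a2 (ENSMUSG00000013584.5, GRCm38 chr9:71215789-71296243, plus strand) measured 89.1, 89.4 and 93.2 CPM in WT and 39.3, 38.7 and 40.2 CPM in cKO. The groups lay far apart and the libraries of each group close together, with a coefficient of variation of 2.51% in WT and 1.97% in cKO. The mean dropped to 43.5% of WT, from 90.6 ± 2.27 to 39.4 ± 0.777 CPM (SD, n = 3), which gave a log2 fold change of -1.20 with an SE of 0.05 (edgeR adjusted p = 1.15e-09). Of all genes tested, 4.42% changed more. Mesothelial markers moved partly with Aldh1a2. Of the 10 on the list, 6 were lower in cKO, among them Msln (log2 fold change -0.82), Bnc1 (-0.90), Upk1b (-0.86) and Muc16 (-1.31), 1 was higher (Krt19, 0.79), and 3 did not pass the test, namely Wt1 (-0.03), Upk3b (-0.04) and Gpm6a (0.02). The background over all genes tested was 21.8% lower and 21.9% higher. The summed levels of the 10 markers overlapped between the groups, as given above. These sums include Krt19, the most abundant gene on the list, which averaged 125 CPM in WT and 216 CPM in cKO. The part of mesothelial cells in the lower level of Aldh1a2 was not tested.

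Aldh1a3 (ENSMUSG00000015134.15, chr7:66390890-66427517, minus strand) measured 39.5, 39.9 and 43.7 CPM in WT and 108, 167 and 122 CPM in cKO. Every cKO library was above every WT library, and the cKO libraries were spread more widely, with replicate 2 the highest. The mean rose 3.22-fold, from 41.0 ± 2.30 to 132 ± 30.7 CPM (SD, n = 3), which gave a log2 fold change of 1.69 with an SE of 0.12 (edgeR adjusted p = 2.23e-07), and 2.00% of all genes tested changed more. Leaving out cKO replicate 2 gave a log2 fold change of 1.49 (edgeR adjusted p = 9.25e-12).

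Aldh1a1 (ENSMUSG00000053279.7, chr19:20492715-20643462, plus strand) measured 63.9, 81.2 and 80.4 CPM in WT and 82.9, 52.4 and 89.6 CPM in cKO. The groups overlapped, and the lowest library of all was cKO replicate 2. The means were 75.2 ± 9.76 and 75.0 ± 19.9 CPM (SD, n = 3), with a log2 fold change of -0.01 and a 95% interval from -0.33 to 0.31 (edgeR adjusted p = 0.963). Leaving out cKO replicate 2 gave a log2 fold change of 0.20 (edgeR adjusted p = 0.0501), just outside the threshold. Within each group, epithelial markers were lowest in the library with the lowest Aldh1a1. Their sum was 949 CPM in WT replicate 1 against 1029 and 1038 CPM in the other WT libraries. It was 1088 CPM in cKO replicate 2 against 1179 and 1214 CPM in the other cKO libraries. The sums of smooth muscle, fibroblast and mesothelial markers were lowest in these libraries too, so this was not particular to epithelial markers. Between the groups the order differed, since the epithelial sum of cKO replicate 2 was above that of every WT library. Of the 10 epithelial markers, 6 were higher in cKO and none was lower past the threshold. The background over all genes tested was 21.9% higher and 21.8% lower. The part of epithelial markers in the level of Aldh1a1 was not tested. The closest other transcript to that of Aldh1a1 was Aldh1a7, with 88.8% identity over 2036 bases, but Aldh1a7 had only 15 to 29 counts per library (edgeR adjusted p = 0.352).

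Per length, the lower level of Aldh1a2 and the higher level of Aldh1a3 nearly offset each other. Levels of different genes were compared as CPM per kilobase of exon. The summed level of the 3 dehydrogenases was 60.9, 64.6 and 66.9 CPM per kilobase in the WT libraries and 57.6, 63.8 and 62.2 CPM per kilobase in the cKO libraries, so the groups overlapped. Its make-up differed. Aldh1a2 took 62.4% ± 1.94 of the sum in WT and 28.5% ± 1.67 in cKO, Aldh1a3 took 13.9% ± 0.408 and 46.5% ± 8.76, and Aldh1a1 took 23.7% ± 2.17 and 25.0% ± 7.25 (SD, n = 3). The ratio of Aldh1a2 to Aldh1a3 per length was 4.60, 4.57 and 4.35 in the WT libraries and 0.741, 0.473 and 0.675 in the cKO libraries. These shares rest on the summed exon length of each gene, which for Aldh1a1 (4934 bases) is far above its longest transcript (2358 bases). With the longest transcript of each gene as the length, the sums were 83.8 ± 5.23 in WT and 87.6 ± 3.58 CPM per kilobase in cKO, the share of Aldh1a2 was 47.8% ± 2.34 and 19.9% ± 0.676, that of Aldh1a3 was 14.2% ± 0.599 and 43.8% ± 9.90, and that of Aldh1a1 was 37.9% ± 2.83 and 36.3% ± 9.53 (SD, n = 3).

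**Figure D2:**
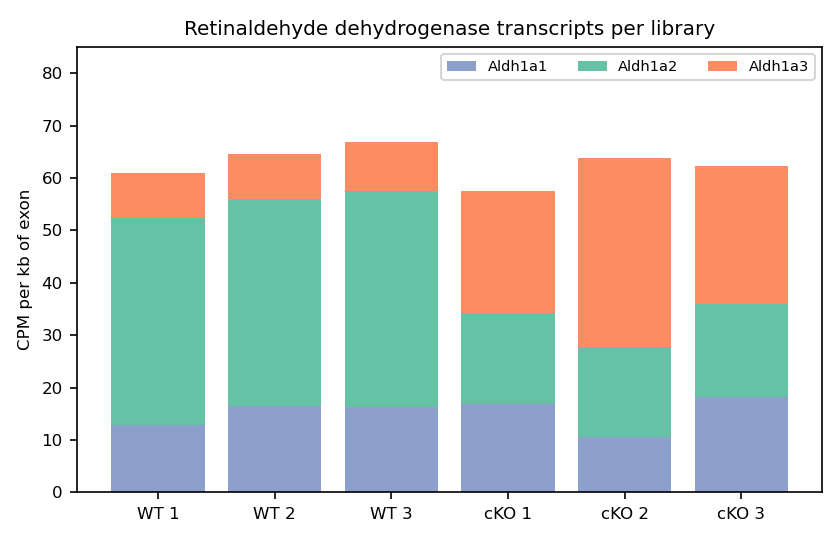
Stacked levels of Aldh1a1, Aldh1a2 and Aldh1a3 in each library, in CPM per kilobase of exon (vertical axis). The bars reach between 57.6 and 66.9 in all 6 libraries, while the Aldh1a2 segment is the largest in WT and the Aldh1a3 segment the largest in cKO.

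Dhrs3, which reduces retinal back to retinol and so draws substrate away from the dehydrogenases, and Cyp26b1, which oxidizes retinoic acid for clearance, were each about doubled in cKO cells. Transcripts of both are known to be induced by retinoic acid in many cells.

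Dhrs3 (ENSMUSG00000066026.14, chr4:144892827-144928209, plus strand) measured 16.8, 16.4 and 16.2 CPM in WT and 40.0, 26.9 and 38.8 CPM in cKO. All cKO libraries were above all WT libraries, and cKO replicate 2 lay between the WT libraries and the other cKO libraries. The mean rose 2.14-fold, from 16.5 ± 0.319 to 35.3 ± 7.22 CPM (SD, n = 3), which gave a log2 fold change of 1.09 with an SE of 0.12 (edgeR adjusted p = 1.13e-05). Leaving out cKO replicate 2 gave a log2 fold change of 1.26 (edgeR adjusted p = 3.36e-10). Rdh10, whose protein works in a complex with that of Dhrs3 and catalyses the opposite reaction, rose from 34.0 ± 0.694 to 44.0 ± 2.23 CPM (SD, n = 3), a log2 fold change of 0.37 (edgeR adjusted p = 0.000257). The ratio of Dhrs3 to Rdh10 per length was 0.675 to 0.700 in WT and 0.880 to 1.35 in cKO.

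Cyp26b1 (ENSMUSG00000063415.12, chr6:84571414-84593908, minus strand) was scarce, with between 26 and 63 counts per library. It measured 1.54, 1.82 and 1.58 CPM in WT and 3.54, 3.02 and 3.47 CPM in cKO, with no overlap. The mean rose 2.03-fold, from 1.64 ± 0.151 to 3.35 ± 0.282 CPM (SD, n = 3), which gave a log2 fold change of 1.01 with an SE of 0.18 (edgeR adjusted p = 0.000573). Its relatives were scarcer still. Cyp26a1 had between 8 and 18 counts per library and stood at 0.751 ± 0.318 and 0.811 ± 0.109 CPM, with a log2 fold change of 0.12 and a 95% interval from -0.65 to 0.88 (edgeR adjusted p = 0.817). Cyp26c1 had between 0 and 2 counts and was not tested. Per summed exon length, the level of the dehydrogenases together was 210 ± 18.3 times that of Cyp26b1 in WT and 98.6 ± 13.2 times in cKO (SD, n = 3). This ratio too depends on the length used, and the longest transcript was not tried for it.

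The binding proteins Crabp1, which holds retinoic acid in the cytosol, and Crabp2, which passes it to the receptors in the nucleus, were both low in WT and lower in cKO. They lie on different chromosomes and their transcripts share 71.2% identity over 424 bases.

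Crabp1 (ENSMUSG00000032291.8, chr9:54764748-54773110, plus strand) was covered by 55, 52 and 62 reads in the WT libraries and by 9, 20 and 9 reads in the cKO libraries, which corresponded to 3.25, 2.78 and 3.63 CPM and to 0.506, 1.06 and 0.579 CPM. Every cKO library was above the floor and below every WT library. The mean dropped to 22.2% of WT, from 3.22 ± 0.426 to 0.715 ± 0.302 CPM (SD, n = 3), which gave a log2 fold change of -2.13 with an SE of 0.27 (edgeR adjusted p = 2.74e-05). Because Crabp1 passed the filter on low counts through WT, its call is given as a description. Over the pooled counts the level in cKO was 22.7% of that in WT, with an exact 95% interval from 15.5% to 32.5% that covers counting error only. This was the largest change of the 9 genes, and 1.11% of all genes tested changed more.

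Crabp2 (ENSMUSG00000004885.5, chr3:87948666-87953376, plus strand) was covered by 25, 26 and 25 reads in the WT libraries and by 5, 12 and 7 reads in the cKO libraries, or 1.48, 1.39 and 1.46 CPM and 0.281, 0.637 and 0.450 CPM. The groups did not overlap, and as for Crabp1 the highest cKO library was replicate 2. The mean dropped to 31.6% of WT, from 1.44 ± 0.0469 to 0.456 ± 0.178 CPM (SD, n = 3), which gave a log2 fold change of -1.64 with an SE of 0.32 (edgeR adjusted p = 0.000965). Because Crabp2 also passed the filter through WT, its call is given as a description. Over the pooled counts the level in cKO was 31.9% of that in WT, with an exact 95% interval from 19.3% to 51.1%. Without cKO replicate 2 the log2 fold changes of Crabp1 and Crabp2 were -2.55 and -1.97.

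Of the 2 receptors, Rara rose slightly and Rarb did not pass the test. Rara (ENSMUSG00000037992.16, chr11:98927818-98974942, plus strand), the broadly expressed receptor, measured 45.3, 41.8 and 43.1 CPM in WT and 50.6, 50.2 and 51.9 CPM in cKO. The groups did not overlap, but the rise was small, to 117% of WT, from 43.4 ± 1.80 to 50.9 ± 0.894 CPM (SD, n = 3), which gave a log2 fold change of 0.23 with an SE of 0.06 (edgeR adjusted p = 0.00424). Of all genes tested, 47.6% changed more.

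Rarb (ENSMUSG00000017491.9, chr14:16430839-16819156, minus strand) had between 60 and 81 counts per library and measured 4.08, 3.42 and 4.27 CPM in WT and 4.05, 4.30 and 3.86 CPM in cKO. The groups overlapped, with means of 3.92 ± 0.446 and 4.07 ± 0.219 CPM (SD, n = 3). The log2 fold change was 0.06, with a 95% interval from -0.26 to 0.38 (edgeR adjusted p = 0.782), so a doubling lay outside the interval. By the exon coordinates of the deposited counts, 38.4% of its exon bases overlap Top2b and Gm48162 on the other strand. Top2b was counted separately by strand and averaged 245 and 258 CPM (edgeR adjusted p = 0.206).

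Rarb is known as a direct target of the receptors through a direct repeat near the start of one of its transcripts. The 7 members with a RefSeq entry (13 windows from 250 bases before to 50 bases after a start, GRCm38.p6) were searched on both strands for the half-site AGGTCA, also with G as the first base or T as the third (4 forms), and for 2 half-sites in a row with 1, 2 or 5 bases between them. The sequence is shown because Rarb was the only gene of the 7 with such a repeat. It lies at chr14:16575507-16575535, minus strand, 59 to 31 bases before the RefSeq start and in the first exon of the GENCODE transcript Rarb-201, and is written 5′ to 3′ with the repeat, spaced by 5 bases, in capitals:
Rarb: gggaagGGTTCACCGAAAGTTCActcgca
A repeat spaced by 5 bases was present in 0.0974% of all 32851 RefSeq windows, one spaced by 1 base in 0.222% and one spaced by 2 bases in 0.268%, while a single half-site, which is part of every repeat, was present in 43.7%. The windows of Aldh1a1, Aldh1a2, Crabp1, Rara, Cyp26b1 and Dhrs3 held none of these repeats. Such a match describes letters in a window and not a bound site.

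**Figure D3:**
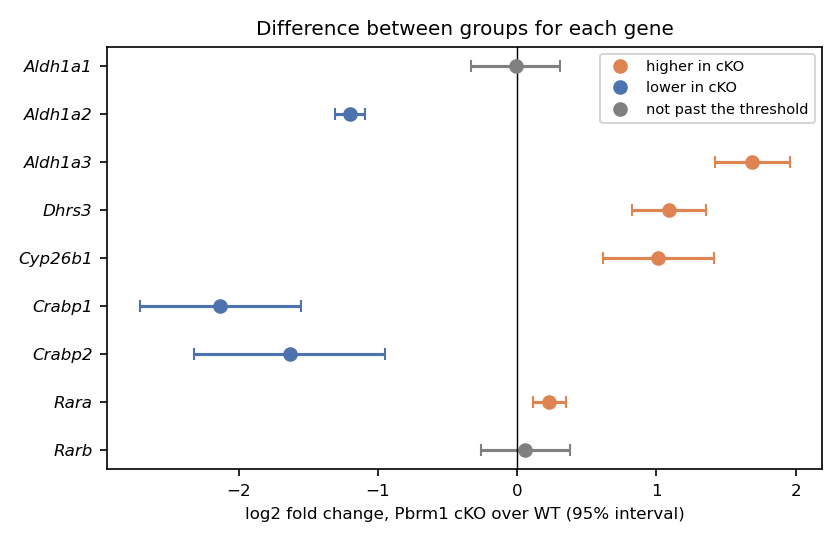
Log2 fold change of cKO over WT (horizontal axis) for the 9 genes, with 95% intervals from the edgeR fit on 3 libraries per group. Points are orange where the gene was higher in cKO, blue where it was lower and grey where it did not pass the threshold. Crabp1 lies farthest to the left at -2.13 and Aldh1a3 farthest to the right at 1.69.

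In WT cells the order of the levels per length was Aldh1a2 (40.0 CPM per kilobase), Aldh1a1 (15.2), Rara (9.94), Aldh1a3 (8.89), Dhrs3 (5.63), Crabp1 (4.01), Crabp2 (1.09), Rarb (0.745) and Cyp26b1 (0.307), and no neighbours in this order overlapped between libraries. In cKO cells Aldh1a3 stood first at 28.6 ± 6.64 CPM per kilobase (SD, n = 3), above Aldh1a2 in every library. Next, Aldh1a2 (17.4), Aldh1a1 (15.2), Dhrs3 (12.0) and Rara (11.7) followed. Aldh1a2 overlapped Aldh1a1, Aldh1a1 overlapped Dhrs3 and Dhrs3 overlapped Rara, while Aldh1a2 lay above Dhrs3 and Rara in every library. Crabp1 (0.892) overlapped Rarb (0.773), Cyp26b1 (0.625) followed, and Crabp2 (0.345) was last. These places and overlaps depend on the length used, and the longest transcript was tried only for the dehydrogenases. With the longest transcript of each gene, Aldh1a1 stood at 31.9 ± 4.14 CPM per kilobase in WT, below Aldh1a2 (40.0 ± 1.00). In cKO it stood at 31.8 ± 8.43 CPM per kilobase and overlapped Aldh1a3 (38.4 ± 8.91; SD, n = 3). Here Aldh1a1 was above Aldh1a3 in cKO replicate 1 (35.2 against 31.4) and cKO replicate 3 (38.0 against 35.3). Only in cKO replicate 2 was it below Aldh1a3 (22.2 against 48.4).

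Aldh1a2 had the highest mean level per summed exon length over the 6 libraries, and the protein-coding genes whose log2 CPM followed it most closely were Tuba4a, Bnc1, Mark3, Cep55 and Daam2, with Pearson correlations between 0.998 and 0.999 over 6 libraries among 10604 genes compared. These 6 points fall into 2 groups, so the correlations mostly restate the difference between the groups and the small spread within them. The log2 fold changes of the 5 genes were -1.02, -0.90, -0.29, -0.62 and -0.51, and Bnc1 is 1 of the mesothelial markers above.

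Beyond the 9 genes, 44 further genes of the pathway were listed by function, of which 33 passed the filter on low counts. Of these, 9 were higher in cKO, 5 were lower and 19 did not pass the test, so the share called was 42.4% against 43.7% of all genes tested. The median log2 fold change was 0.12. The list had been drawn up with earlier results of these data known.

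Among genes of retinol uptake and storage, 5 of 10 were tested, 1 was higher and 1 was lower. The share called was 40% against 43.7% of all genes tested. Stra6, the membrane receptor that takes up retinol from its carrier in blood, measured 11.6, 11.3 and 10.2 CPM in WT and 4.22, 6.90 and 4.31 CPM in cKO. It dropped to 46.6% of WT without overlap (log2 fold change -1.09, edgeR adjusted p = 0.000103). Lpl, a lipase that can release retinol from retinyl esters in lipoproteins, rose (log2 fold change 0.71, edgeR adjusted p = 2.90e-05). Lrat, which stores retinol as esters, had between 2 and 11 counts and was not tested.

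Of the 12 oxidoreductases, 11 were tested, 3 were higher and 2 were lower, a share called of 45.5% against 43.7% of all genes tested. The largest change was in Dhrs9, a dehydrogenase that can act on retinol, which dropped to 40.6% of WT, from 17.7 ± 1.21 to 7.20 ± 0.957 CPM (SD, n = 3), a log2 fold change of -1.31 (edgeR adjusted p = 6.97e-07). The others that passed were Rdh10, Rdh11 (0.23), Adh1 (0.26) and Rdh13 (-0.16). Adh1 (edgeR adjusted p = 0.0305) and Rdh13 (edgeR adjusted p = 0.0383) lost the call with DESeq2 (adjusted p of 0.0783 and 0.110).

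Of the 11 receptors and coregulators, 10 were tested, 2 were higher and 1 was lower, a share called of 30% against 43.7% of all genes tested. Rarg rose from 33.6 ± 2.68 to 44.2 ± 2.64 CPM and the retinoid X receptor Rxra from 67.8 ± 2.19 to 80.3 ± 2.80 CPM (SD, n = 3), with log2 fold changes of 0.39 and 0.24 (edgeR adjusted p = 0.000533 and 0.00156). Both rises were small, like that of Rara. Rxrb averaged 41.8 ± 0.887 and 39.4 ± 1.38 CPM (SD, n = 3), a log2 fold change of -0.08 (edgeR adjusted p = 0.265), and the corepressor Ncor1 was lower by little (log2 fold change -0.16, edgeR adjusted p = 0.0103).

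Of 8 genes known to respond to retinoic acid in other cells, 5 were tested and 4 passed, where 43.7% of all genes tested did so. With so few genes this count is a description. The homeobox genes Meis1 and Meis2 rose, from 60.9 ± 0.743 to 87.0 ± 1.64 CPM and from 53.4 ± 3.10 to 65.9 ± 1.36 CPM (SD, n = 3), with log2 fold changes of 0.52 and 0.30 (edgeR adjusted p = 1.52e-06 and 0.000598). Rarres2, which encodes the chemoattractant chemerin, rose as well (log2 fold change 0.32, edgeR adjusted p = 0.00494). Rarres1 went the other way, with 22, 25 and 35 reads in the WT libraries and 3, 1 and 2 reads in the cKO libraries. Its pooled level in cKO was 7.39% of that in WT, with an exact 95% interval from 2.64% to 16.8% (edgeR adjusted p = 2.10e-05). Rarres1 passed the filter on low counts through WT, since no cKO library reached its limit, so its call is given as a description. Tgm2 (log2 fold change -0.03) did not pass. Stra8 and Hoxb1 had 0 counts in every library and Cdx1 at most 1, so these responsive genes were not measurable here. Of the remaining list, on clearance and delivery, 2 of 3 genes were tested and neither passed: Cyp26a1, described above, and Fabp5, a carrier that can bring retinoic acid to another receptor (log2 fold change -0.40, edgeR adjusted p = 0.0833).

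**Figure D4:**
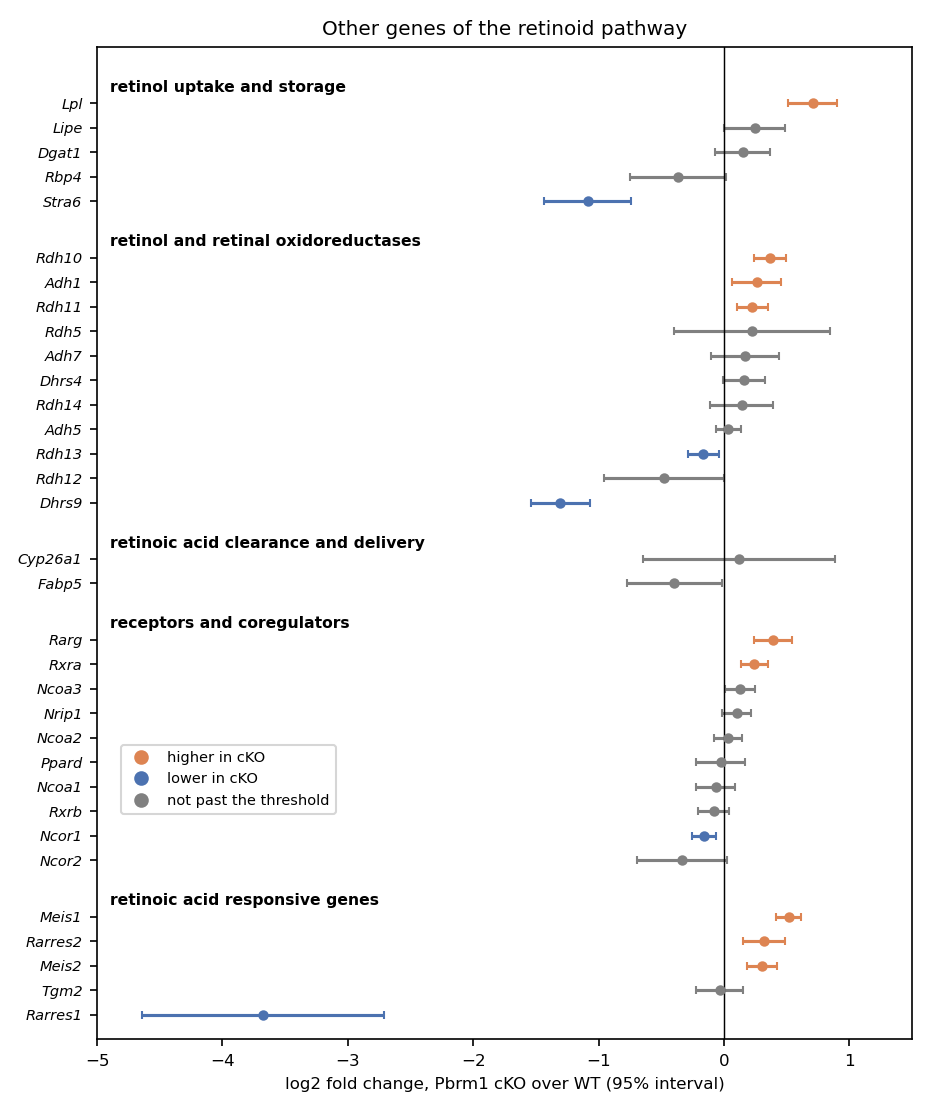
Log2 fold change of cKO over WT (horizontal axis) with 95% intervals for the 33 further pathway genes that were tested, grouped by function. Orange points were higher in cKO (9 genes), blue points lower (5 genes) and grey points did not pass the threshold (19 genes). Rarres1, Dhrs9 and Stra6 lie farthest to the left, and no gene rose by more than 0.71.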

How the data were processed

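RNA-seq was done on 6 libraries, 3 per group. The table deposited by the authors holds integer counts, which its header attributes to featureCounts 1.6.4 over exons, by strand, with the GENCODE M18 annotation and default settings that leave out reads mapping to several places. The labels name cutadapt, HISAT2 and GRCm38.p5. Symbols came from GENCODE M21 of the same build (54165 of 54232 genes matched), and promoter windows from RefSeq. No column was left unused.

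The quasi-likelihood F-test of edgeR 4.0.16 was run on the counts under R 4.3.3 (TMM normalization, filterByExpr, Benjamini-Hochberg adjustment over 15376 genes, threshold 0.05). CPM carry the same factors. DESeq2 1.42.0 (the study used another version for its uterine libraries), limma 3.58.1 (voom), other scalings and filters, a replicate block and leaving out each library were alternatives. Transcript identity came from BLAST 2.17.0 (same strand, longest transcript). The test was checked on simulated counts. Pairs of libraries within a group differed by more than sampling noise (chi-square per gene 1.31 to 1.60). Whether libraries of a group shared animals or cultures is not stated, so p-values measure the spread between these libraries. Intervals of log2 fold changes come from the edgeR fit and include the spread between libraries. Exact intervals of pooled counts and floors cover counting error only, since reads carried no molecular identifiers.

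Named were the 9 genes, Pbrm1, 7 fixed genes of the pathway (Stra6, Rdh10, Rarg, Rxra, Rxrb, Cyp26a1, Cyp26c1), up to 5 called genes with the largest change per pathway list, and the 5 protein-coding genes with a mean of at least 5 CPM most like the gene with the highest level per length. Lrat, Fabp5, Tgm2, Stra8, Hoxb1, Cdx1, Aldh1a7 and Top2b were added after their values were seen. Some genes of the pathway are not reported here. Members and lists were chosen with earlier results of these data known.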

Additional observations from a re-analysis of the deposited data

How the results depend on the processing

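The 7 genes called kept their direction and their call under every alternative in which they were tested (13 alternatives, and 12 for Crabp1 and Crabp2, which did not reach 10 counts in every library). Under that stricter filter 5 genes were called. The calls of Crabp1 and Crabp2, which passed the main filter through WT, are a description. The log2 fold changes ranged from -1.22 to -1.18 for Aldh1a2, 1.49 to 1.82 for Aldh1a3, -2.55 to -1.92 for Crabp1, -1.97 to -1.38 for Crabp2, 0.20 to 0.26 for Rara, 0.97 to 1.09 for Cyp26b1 and 0.99 to 1.26 for Dhrs3. Genes near 0 changed sign without passing the threshold: Aldh1a1 with library sizes alone (0.0067), without WT replicate 2 (0.05), without WT replicate 3 (0.04) and without cKO replicate 2 (0.20), with -0.16 to 0.20 over the left-out libraries, Rarb without WT replicate 2 (-0.035, range -0.035 to 0.12), and Cyp26a1 without WT replicate 2 (-0.18, range -0.18 to 0.45). The cause was not tested.

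Of the other named genes, Adh1 lost its call in 5 alternatives, Rdh13 in 6 and Ncor1 in 1 (without WT replicate 1, edgeR adjusted p = 0.0552). Leaving out 1 library gave 12 to 17 further pathway genes called, 36 to 43 of 60 markers and 5532 to 7054 of all genes. No scaling moved the median of all genes by more than 0.02 on the log2 scale. With the replicate number as a block, 7 of the 9 genes, 15 further pathway genes, 40 markers and 6908 of all genes were called. Deviations of same-numbered libraries correlated at -0.03, 0.04 and 0.11, so the numbers were not taken as pairs. The longest transcript as gene length, chosen after seeing the data, moved the summed level and the shares of Aldh1a1 and Aldh1a2 as given above. By exon length the mean sum was lower in cKO (61.2 against 64.1 CPM per kilobase in WT). By longest transcript it was higher in cKO (87.6 against 83.8). The groups overlapped by either length. Depth limits the values of Crabp1, Crabp2, Cyp26a1 and Rarres1, at 1 to 62 counts per library.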
